A study of Mus musculus with 10 samples.

Results

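The 9 erythroid and megakaryocytic genes Klf1, Gata2, Tal1, Gfi1b, Nfe2, Zfpm1, Epor, Itga2b and Vwf were described by every counted region in or within 20 kb of their mm10 gene spans, which gave 77 of the 151133 regions and 9 of 21887 protein-coding genes. The data were CUT&RUN read counts obtained with an antibody against IKZF2, also called Helios, which is a DNA-binding zinc-finger protein related to Ikaros. The samples were RN2 cells, a C57BL/6 mouse leukaemia line with MLL-AF9 and NRASG12D. All of them, the control antibody samples included, carried a retrovirus for murine IKZF2 and RFP, had been sorted and were then cultured. The signal is thus that of cells carrying an IKZF2 retrovirus, and how much of it is background was not measured. The anti-IKZF2 antibody was used on 6 samples, as 3 libraries with 2 technical replicates each, and 4 samples (2 libraries) had a control antibody. Those 4 were not analysed here, so signal could be compared only among regions of the same libraries. CUT&RUN counts give no expression, so the labelled cell type was not checked against markers.

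Erythroid cells and megakaryocytes arise from a shared progenitor, and a small set of DNA-binding factors directs both. GATA factors bind with the bHLH factor TAL1 and the cofactor FOG-1 (Zfpm1), KLF1 carries the erythroid side, and NFE2 and GFI1B act in both lineages. These genes are used as markers of erythroid or megakaryocytic cells, though Gata2, Tal1 and Itga2b also act in or mark earlier blood cells. Ikaros itself is known to act on globin genes in red cell precursors.

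A region's signal is given as CPM, the count scaled to the total of the library's reads in regions, divided by the region's width in kb, with technical replicates summed. The 3 libraries held 1675237, 1570251 and 2081455 reads in regions, of which 1113, 1217 and 1381 fell in the 77 regions. The median of the 77 regions was 116 bp wide (range 91 to 523 bp) and held 12, 12 and 14 reads, and a single read at that width was worth 5.15, 5.49 and 4.14 CPM per kb. Technical replicate 1 was the shallow one, with a median of 2 reads per region in each library and no read in 20 to 29 of the 77 regions. Across the 77 regions the libraries hardly followed each other (Pearson r of log2 signal plus 1 of 0.21, -0.12 and -0.04), nor did the technical replicates of a library (-0.11, 0.11 and 0.11). The labels do not tie the libraries to separate cultures, and every SD given here may therefore hold technical spread only.

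Among the regions with high signal, or lying on a member's own start, 4 overlapped the bases before an annotated gene start and could be shown as sequence. They were the region on the start of Zfpm1 and the regions before the starts of Gcdh, Dnase2a and Copz1, which are neighbours of Klf1 and Nfe2. Each stretch is the part of the region that lies before the start listed in the RefSeq promoter table, read 5′ to 3′ on the strand of the gene named, from RefSeq on GRCm38.p6. For Zfpm1 that start lies 112 bases past the stretch, so the stretch is inside the gene span, whose outermost end is further upstream. Capitals mark GGGAA or its reverse complement TTCCC, the core of the motif known for Ikaros proteins.
Zfpm1, chr8:122281891-122282029, plus strand: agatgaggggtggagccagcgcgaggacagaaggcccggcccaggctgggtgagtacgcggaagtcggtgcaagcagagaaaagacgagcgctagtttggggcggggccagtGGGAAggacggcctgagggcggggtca
Dnase2a, chr8:84908536-84908700, plus strand: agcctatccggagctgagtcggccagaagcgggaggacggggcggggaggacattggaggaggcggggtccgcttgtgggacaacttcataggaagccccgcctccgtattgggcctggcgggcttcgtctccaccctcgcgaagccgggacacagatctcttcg
Gcdh, chr8:84893922-84894121, minus strand: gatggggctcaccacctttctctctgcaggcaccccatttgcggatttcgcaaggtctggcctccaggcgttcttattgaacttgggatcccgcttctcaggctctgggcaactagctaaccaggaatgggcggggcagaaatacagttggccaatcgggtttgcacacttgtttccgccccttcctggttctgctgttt
Copz1, chr15:103272638-103272887, plus strand: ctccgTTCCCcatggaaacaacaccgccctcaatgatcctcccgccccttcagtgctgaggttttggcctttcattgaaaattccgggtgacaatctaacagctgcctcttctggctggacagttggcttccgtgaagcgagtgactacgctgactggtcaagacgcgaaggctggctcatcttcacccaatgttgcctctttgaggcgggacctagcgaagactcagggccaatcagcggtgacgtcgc
GGGAA occurred once each in the Zfpm1 and Copz1 stretches (1 match) and had 0 matches in the Dnase2a and Gcdh stretches, counting both strands. At the same positions of all 32851 RefSeq promoter windows, 37.3% held it for a stretch placed and sized like that of Zfpm1, 42.5% for Dnase2a, 48.7% for Gcdh and 56.2% for Copz1. GATAA, a core of GATA sites, had 0 matches in all 4 stretches, with shares of 14.8 to 22.6% over all windows. CACCC, a core bound by KLF factors, had 2 matches in the Zfpm1 stretch, 1 in Dnase2a, 1 in Gcdh and 2 in Copz1, with shares of 32.9, 39.2, 45.5 and 52.0%. No match overlapped another. The Zfpm1 and Dnase2a stretches were rich in G and C (66.9 and 66.1%), against means of 51.4 and 52.8% over all windows. The Gcdh and Copz1 stretches were closer to the means, at 55.5 and 56.0% against 53.9 and 53.2%.

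High signal at these genes lay at their own ends, at ends of neighbouring genes and in distal regions. Of the 77 regions, 20 (25.97%) were in the top 10% of all regions by mean signal (64.1 CPM per kb or more), where 11.3% of the 100279 regions in or within 20 kb of any protein-coding gene and 10.0% of all regions were. The 20 were 3 of the 8 regions within 1 kb of an end of the member gene, 5 of the 6 within 1 kb of an end of another protein-coding gene, 9 of the 37 more than 5 kb from every gene end, and 3 of the 26 in between. Elsewhere in the genome the top 10% took in 34.8% of regions that close to a gene end and 7.70% of distal ones. The 20 were spread unevenly, with 7 at Zfpm1, 3 each at Klf1, Nfe2 and Vwf, 2 each at Itga2b and Gfi1b, and 0 at Gata2, Tal1 and Epor. Within single libraries 11, 16 and 13 of the 77 regions were in that library's top 10%, and without library 2 the mean put 13 regions there in place of 20. The genes were picked with results of these data known, so the share is a description.

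Regions that reached the top 10% in each of the 3 libraries numbered 6, and 4 of them lay within 1 kb of an end of a neighbouring gene. They made up 7.79% of the 77, where 0.863% of regions near any protein-coding gene and 0.641% of all regions did so, and they lay at Klf1 (2), Nfe2 (2), Itga2b (1) and Vwf (1). Of the 6, 5 were nearer to an end of another gene than to an end of the member, and the other lay deep inside Vwf. Over all protein-coding genes, 52.5% of such region and gene pairs (970 of 1849) had another gene's end nearer. For the 20 regions in the top 10% by mean, 8 (40.0%) were nearer to another gene, against 42.1% of pairs over all genes (8263 of 19614). Technical replicate 2 alone left 3 regions in the top 10% of all libraries, and technical replicate 1 alone left 2.

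**Figure D1:**
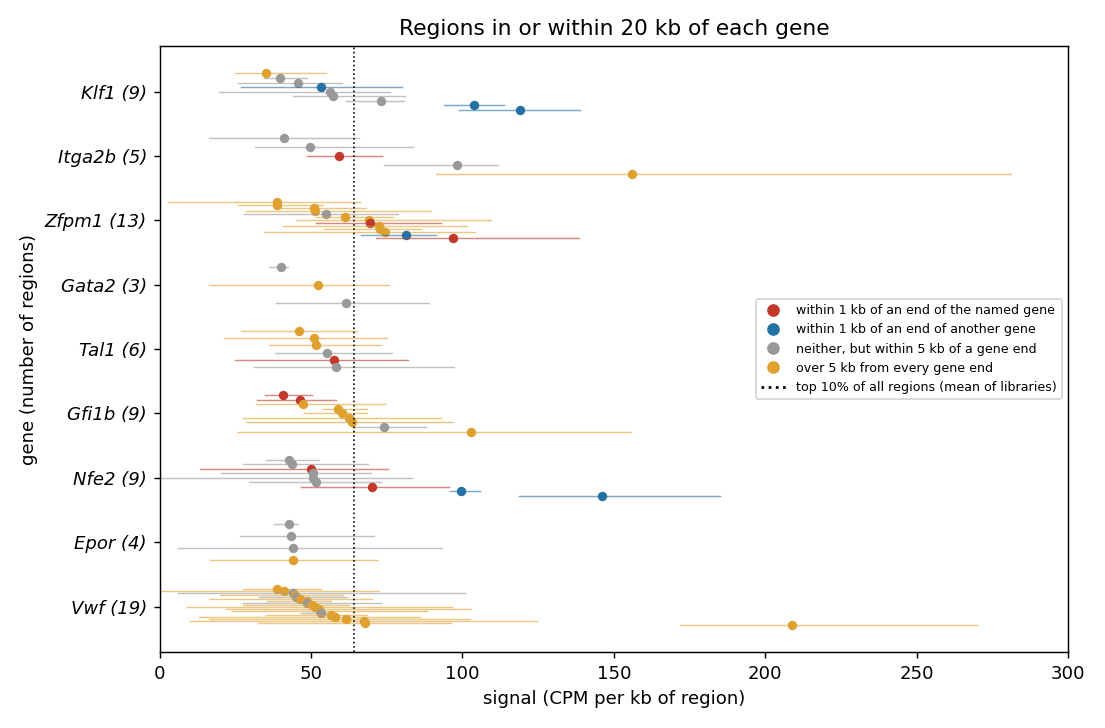
Signal in CPM per kb (horizontal axis) of each of the 77 regions, grouped by gene with the number of regions in parentheses. Points are means of 3 libraries, lines run from the lowest to the highest library, colours give the place of the region, and the dotted line is the top 10% threshold of 64.1; the single points furthest right are at Vwf (209), Itga2b (156) and Nfe2 (146).

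Klf1 encodes an erythroid zinc-finger factor needed for globin expression, and the strongest signal around it lay at the starts of its 2 neighbours. Klf1 spans chromosome 8 from 84901982 to 84905291 on the plus strand and had 9 regions, of which 1 lay inside the gene and none within 1 kb of its ends. The highest, at 84908535 to 84908700, lay 3244 bp past the end of Klf1 and 55 bp before the gene span of Dnase2a, which encodes a lysosomal DNase used to clear the nuclei expelled by red cell precursors. It held 27, 34 and 29 reads by technical replicate 2 and 6, 2 and 5 by technical replicate 1 of libraries 1, 2 and 3. Its signal was 119, 139 and 99.0 CPM per kb in the 3 libraries (mean 119.1 ± 19.98, SD, n = 3), or 103 reads in all with a 95% Poisson interval of 84.1 to 125 that covers counting error only. Signal here was above the top 10% threshold in every library, and the value was 86.1 in technical replicate 1 alone. The other strong region, at 84893746 to 84894121, overlapped the start of Gcdh, a mitochondrial dehydrogenase gene, 7861 bp from Klf1. It held 47, 60 and 65 reads by technical replicate 2 and 12, 7 and 16 by technical replicate 1, with 93.9, 114 and 104 CPM per kb in the libraries (mean 104 ± 9.93, SD, n = 3). The region inside Klf1, at 84903487 to 84903642 and 1505 bp from the Klf1 start, held 20, 11 and 24 reads by technical replicate 2 and 0, 4 and 2 by technical replicate 1. It stood at 77.02, 61.6 and 80.6 (mean 73.1 ± 10.1, SD, n = 3), lower than the region by Dnase2a in each library and in the top 10% in none. The remaining 6 regions lay between 35.2 and 57.3 CPM per kb.

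The value given to Klf1 thus depended on which gene a region is read as belonging to. With the highest region within 5 kb of either end, Klf1 stood at 119, at percentile 94.8 of the 16133 protein-coding genes with such a region, and was the only one of the 9 genes in the top 10% of genes (7.37% of all genes were). By log2 signal plus 1 over the 3 libraries, the 3 genes closest to it were Dnase2a and Mast1, which drew their value from the same region (distance 0), and Slc43a2 on chromosome 11 (distance 0.049). The Klf1 locus also had many regions for its size, 2.08 per 10 kb of span and flanks, against a median of 0.781 over all genes (percentile 97.8). Of its 9 regions, 8 were nearer to an end of another gene. Nfe2 (percentile 95.4) and Gfi1b (percentile 94.3) stood nearly as high by this measure.

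Gata2 and Tal1, whose products direct blood stem cells and then both lineages, had no region in the top 10% by mean. Gata2 spans chromosome 6 from 88193891 to 88207032 on the plus strand and had 3 regions, all inside the gene, the fewest of the 9 (0.564 per 10 kb, percentile 33.6). The highest, at 88203399 to 88203492, lay 3540 bp from the gene's end and held 6, 13 and 9 reads by technical replicate 2 and 0, 0 and 2 by technical replicate 1. It stood at 38.5, 89.0 and 56.8 CPM per kb (mean 61.5 ± 25.6, SD, n = 3), and at 22.0 in technical replicate 1 alone. The other 2 regions stood at 52.4 and 40.2. Gata2 is known to carry enhancers inside its introns, which the annotation used here does not mark.

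Tal1 spans chromosome 4 from 115056426 to 115071755 on the plus strand and had 6 regions (1.08 per 10 kb, percentile 70.8) between 45.9 and 58.3 CPM per kb. By the median over their regions Tal1 was at percentile 72.0 and Gata2 at 66.7 of all genes with a region, and by their highest region at 28.1 and 37.0. The region nearest to its start, at 115056961 to 115057063 and 535 bp inside the gene, held 13, 2 and 14 reads by technical replicate 2 and 1, 2 and 0 by technical replicate 1. It stood at 81.9, 25.0 and 65.9 in the libraries (mean 57.6 ± 29.4, SD, n = 3). The highest, at 115068090 to 115068213, stood at 97.1, 31.1 and 46.9 (mean 58.3 ± 34.5, SD, n = 3), and library 1 alone put it in its top 10%. Both were highest in library 1 and lowest in library 2, with 14 and 20 reads in library 1 and 4 and 6 in library 2.

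Gfi1b encodes a repressor needed for red cell and platelet formation, and the 2 regions at its ends were the lowest of its 9 by mean, 1 of them narrowly. Gfi1b spans chromosome 2 from 28609450 to 28621982 on the minus strand and had 9 regions. The region at its start, 121 bp from it at 28621689 to 28621861, held 10, 10 and 12 reads by technical replicate 2 and 0, 0 and 6 by technical replicate 1. It stood at 34.7, 37.0 and 50.3 CPM per kb (mean 40.7 ± 8.40, SD, n = 3), the lowest of the 9 regions. The region 887 bp past the end of the gene stood at 46.21 ± 13.15. The next lowest, at 28633159 to 28633253, stood at 47.35 ± 23.62 (SD, n = 3 each), so these 2 differed by less than either SD. Inside the gene, 2834 bp from the start, a region at 28618945 to 28619148 stood at 70.6, 87.8 and 63.9 (mean 74.1 ± 12.4, SD, n = 3). The highest region, at 28591685 to 28591779, lay 17671 bp past the end of Gfi1b and 8406 bp from Gtf3c5, and stood at 127, 156 and 25.6 (mean 103 ± 68.4, SD, n = 3). It rested on 20 and 23 reads in libraries 1 and 2, against 5 in library 3, so library 3 stood apart. The 4 regions in between lay 9777 to 11399 bp past the end, between 58.9 and 63.6.

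Nfe2 encodes a leucine-zipper factor needed for platelet release, and its locus held both a wide region on its own end and stronger ones at neighbours. Nfe2 spans chromosome 15 from 103248212 to 103258403, with no strand in the tables used, and had 9 regions. The region over its higher-coordinate end, at 103258218 to 103258741, was the widest of all 77 (523 bp) and held 39, 45 and 97 reads by technical replicate 2 and 2, 11 and 7 by technical replicate 1. It stood at 46.8, 68.2 and 95.5 CPM per kb (mean 70.2 ± 24.4, SD, n = 3), high in library 3 and not in library 1. At 103239373 to 103239466, a region inside Cbx5, which encodes the heterochromatin protein HP1 alpha, lay 438 bp from the Cbx5 start and 8746 bp from Nfe2. It held 15, 23 and 17 reads by technical replicate 2 and 6, 4 and 6 by technical replicate 1, and stood at 135, 185 and 119 (mean 146 ± 34.5, SD, n = 3). The region over the start of Copz1, a coatomer subunit gene, at 103272430 to 103272916 and 14027 bp from Nfe2, held the most reads of the 77, with 56, 64 and 103 by technical replicate 2 and 22, 10 and 4 by technical replicate 1. Its signal was 95.8, 97.0 and 106 (mean 99.5 ± 5.45, SD, n = 3), the closest agreement among libraries of the 6 regions that were in every library's top 10%. That agreement holds for summed technical replicates only. Technical replicate 1 alone gave 151, 75.1 and 25.2 in libraries 1, 2 and 3, and technical replicate 2 alone gave 83.8, 102 and 121. Both neighbour regions were above the Nfe2 end region in each library. The other 6 regions lay between 42.6 and 51.5.

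**Figure D2:**
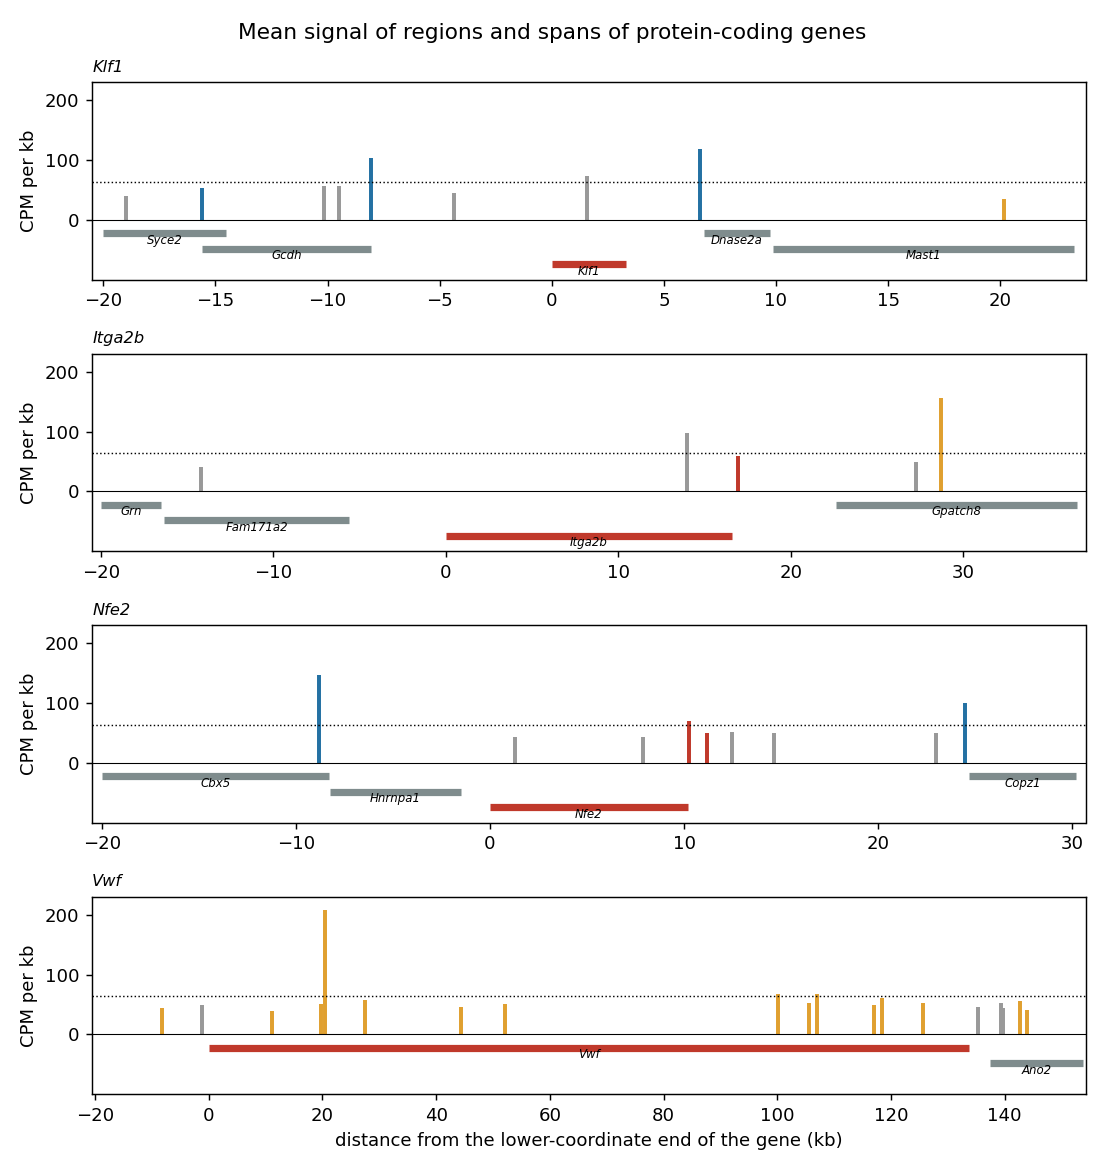
Mean signal of each region in CPM per kb (vertical axis) against distance in kb from the lower-coordinate end of Klf1, Itga2b, Nfe2 and Vwf, with bars for spans of protein-coding genes below, cut at 20 kb from the gene (the named gene in red, others in grey) and the 64.1 threshold dotted. Red lines are regions within 1 kb of an end of the named gene, blue within 1 kb of another gene's end, yellow over 5 kb from every gene end and grey the rest; at Klf1 and Nfe2 the tallest lines stand at ends of Dnase2a, Gcdh, Cbx5 and Copz1.

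Zfpm1, which encodes the GATA cofactor FOG-1, had 2 of the 3 own-end regions in the top 10% by mean, the other being on Nfe2. It spans chromosome 8 from 122281856 to 122337862 on the plus strand and had 13 regions, 9 of them inside the gene. Before the start, at 122281325 to 122281509 and 347 bp from it, a region held 16, 38 and 27 reads by technical replicate 2 and 6, 2 and 4 by technical replicate 1. Its signal was 71.4, 138 and 80.9 CPM per kb (mean 96.9 ± 36.3, SD, n = 3), and it was in the top 10% of library 2 alone. The region over the start itself, at 122281796 to 122282029 and shown above in part, held 21, 31 and 25 reads by technical replicate 2 and 4, 3 and 0 by technical replicate 1. It stood at 64.1, 92.9 and 51.6 (mean 69.5 ± 21.2, SD, n = 3), and both start regions were highest in library 2. Of the 5 other regions in the top 10% by mean, 3 lay inside the gene 13729 to 22352 bp from its ends (72.3 to 74.5), 1 lay inside Zfp469 (69.1 ± 35.2, SD, n = 3), and 1 lay 15 bp from an end of Trhr2 (81.4 ± 13.3, SD, n = 3). No other gene's end lay within 8 kb of the start regions. With 69.1 as the median over its 13 regions, Zfpm1 was at percentile 97.5 of all genes with a region.

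Epor encodes the erythropoietin receptor, and no region was counted in it or within 10 kb of it. It spans chromosome 9 from 21958897 to 21963576 on the minus strand, and its 4 regions lay 10416 to 18912 bp away, each nearer to an end of another gene. All 4 stood between 42.7 and 44.2 CPM per kb with 24 to 27 reads each, and the whole locus held 30, 32 and 40 reads in the 3 libraries. The highest of these 4 was at percentile 2.57 of the highest regions of all genes, whatever their number of regions. A region 21864 bp from the gene, just beyond the 20 kb limit, stood at 87.6. The deposited region names carry running numbers along each locus. A number is skipped between the counted regions on either side of Epor, and another between the Cbx5 region and the next one at Nfe2. Whether regions without counts lay there is not given, so the lack of a counted region at Epor may not mean that none was found.

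Itga2b encodes integrin alpha IIb (CD41), the platelet fibrinogen receptor subunit that also marks early progenitors. It spans chromosome 11 from 102453297 to 102469883 on the minus strand and had 5 regions. Inside the gene, 2543 bp from its start, a region at 102467211 to 102467340 held 14, 16 and 24 reads by technical replicate 2 and 2, 6 and 6 by technical replicate 1. It stood at 74.0, 109 and 112 CPM per kb (mean 98.1 ± 20.9, SD, n = 3), in the top 10% of libraries 2 and 3, and no other gene's end lay within 8 kb of it. The region 276 bp before the start, at 102470159 to 102470342, was lower, at 55.5, 48.7 and 73.5 (mean 59.2 ± 12.8, SD, n = 3). The highest region, at 102481950 to 102482061, lay inside Gpatch8, 12067 bp before the Itga2b start and 6039 bp from an end of Gpatch8. It held 11, 45 and 20 reads by technical replicate 2 and 6, 4 and 2 by technical replicate 1. Library 2 stood apart there, with 281 against 91.4 and 95.2 in libraries 1 and 3 (mean 156 ± 108, SD, n = 3), and without library 2 the mean was 93.3.

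Vwf encodes von Willebrand factor, the platelet adhesion protein made by megakaryocytes and endothelium, and had the single highest region of the 9 genes. It spans chromosome 6 from 125552948 to 125686679, with no strand in the tables used, and had 19 regions, 12 of them inside the gene and none within 1 kb of its ends. The region at 125573344 to 125573469 lay inside the gene 20396 bp from the lower-coordinate end, and the nearest end of another gene, Cd9, was 78584 bp away. It held 24, 41 and 41 reads by technical replicate 2 and 12, 12 and 7 by technical replicate 1. Its signal was 172, 270 and 185 CPM per kb (mean 209 ± 53.4, SD, n = 3), from 137 reads with a 95% Poisson interval of 115 to 162, and it ranked at 61 of 151133 regions. Every sample had reads there, and the value was 193 with technical replicate 2 alone and 281 with technical replicate 1 alone. The other 18 regions lay between 38.8 and 68.0, and the region nearest to a Vwf end, 1179 bp from it, stood at 48.7. A gene-end value therefore missed this region: by the highest region within 5 kb of an end Vwf was at percentile 19.7, and by the highest region of the locus at percentile 99.6.

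**Figure D3:**
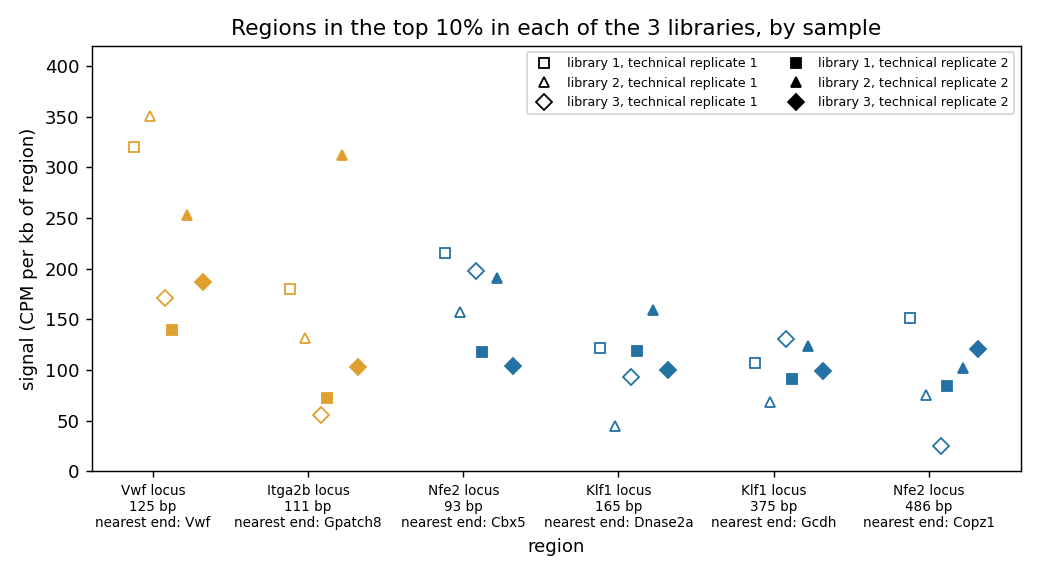
Signal in CPM per kb (vertical axis) of the 6 regions in the top 10% of each library, with open symbols for technical replicate 1, filled symbols for technical replicate 2 and a symbol shape for each library; yellow marks regions over 5 kb from every gene end and blue those within 1 kb of an end of a neighbouring gene. The Vwf region has the highest mean (209), and library 2 stands apart at the region in Gpatch8 in technical replicate 2.

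Ordered by their highest region the genes were Vwf (209), Itga2b (156), Nfe2 (146), Klf1 (119), Gfi1b (103), Zfpm1 (96.9), Gata2 (61.5), Tal1 (58.3) and Epor (44.2). In all 8 pairs of neighbours in this order the means differed by less than the larger of both SDs. Each value is the highest of an unlike number of regions, from 3 at Gata2 to 19 at Vwf. The order and the percentiles by highest region were not adjusted for that. The values of Itga2b, Nfe2, Klf1, Gfi1b and Epor came from regions outside the gene and more than 1 kb from its ends. That of Vwf came from a region far from the gene's ends, and that of Zfpm1 from one 347 bp before the gene. The outermost regions inside the 20 kb limit stood between 39.9 and 103 CPM per kb and the nearest ones beyond it between 38.2 and 142, the highest of these 24047 bp from Gfi1b.

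The next question was whether signal at a gene's own ends exceeded that of distal regions of the same loci. The 8 regions within 1 kb of an end of a member had median signals of 59.8, 42.9 and 63.3 CPM per kb in libraries 1, 2 and 3, and the 37 regions over 5 kb from every gene end had 62.5, 68.4 and 45.3. The difference was -2.79, -25.5 and 18.0, with a mean of -3.43 ± 21.7 (SD, n = 3; two-sided exact sign-flip permutation p = 0.75), so its sign changed between libraries. With 3 libraries such a test cannot go below 0.25. Its direction turned in 7 of the settings tried, among them without library 2 (7.60). In the rest of the genome the 10901 regions within 1 kb of a gene end had medians of 57.2, 61.9 and 56.8, above the 48.2, 46.3 and 48.9 of the 121447 distal regions in each library. The own-end regions were wider, at a median of 178 bp against 111 bp for distal ones. Without division by width the own-end regions exceeded the distal ones by 2.38 CPM (p = 0.50, exact sign-flip permutation over 3 libraries).

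By median, regions at ends of neighbouring genes stood above own-end and distal regions in each library, but they were only 6, with 3 at Klf1, 2 at Nfe2 and 1 at Zfpm1. The 6 regions within 1 kb of another gene's end (both ends of Gcdh and an end each of Dnase2a, Trhr2, Cbx5 and Copz1) had medians of 94.9, 105 and 101 CPM per kb in the 3 libraries. They exceeded the distal regions by 32.3, 37.0 and 56.1 (mean 41.8 ± 12.6, SD, n = 3) and the own-end regions by 35.1, 62.5 and 38.1 (mean 45.2 ± 15.0, SD, n = 3). Both differences were positive in 3 of 3 libraries, with an exact sign-flip permutation p of 0.25, the smallest that 3 libraries allow, and 0.375 after Benjamini-Hochberg adjustment over the 3 differences. The excess over distal regions was 1.78 ± 21.1 when ends were taken within 5 kb and 11.1 ± 18.5 when loci were widened to 50 kb (SD, n = 3 each), so in both it was smaller than its SD. With technical replicate 1 alone it was 38.7 ± 46.6, also smaller than its SD, and with technical replicate 2 alone 49.2 ± 5.64 (SD, n = 3 each). These neighbour regions had a median width of 182 bp, close to that of own-end regions. One of the 6, over the end of Gcdh, stood low at 53.4 ± 26.5 (SD, n = 3). Only distances were measured, and what gave the signal at these ends was not tested.

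**Figure D4:**
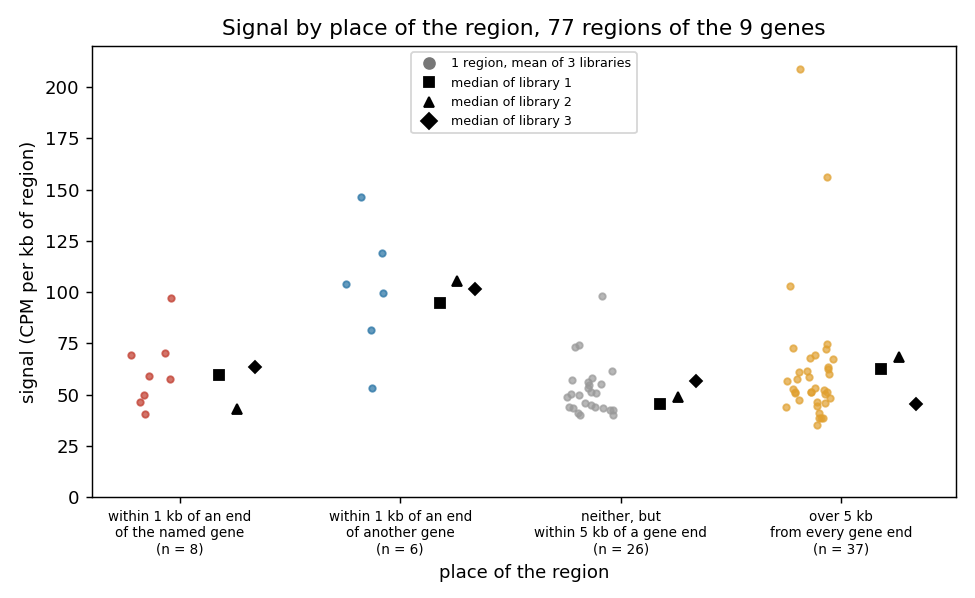
Signal in CPM per kb (vertical axis) of the 77 regions by place (horizontal axis); coloured points are single regions as means of 3 libraries, and black symbols are the median of each library. Regions at ends of neighbouring genes have medians of 94.9 to 105, against 42.9 to 63.3 at the genes' own ends and 45.3 to 68.4 in distal regions.

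Counts at the 9 genes were also compared between technical replicates and between libraries in a fit over all regions. With libraries as a block, edgeR's quasi-likelihood test covered 28 of the 77 regions, those that passed the filter on low counts, and called 0 between technical replicates at an adjusted p under 0.05, where 71 of 27452 regions (0.259%) were called. At an unadjusted p under 0.05 there were 4 by edgeR (1884 of all 27452 regions) and 2 by DESeq2 (1389 of 27452), which also called 0 of the 28. The region on the Nfe2 end came nearest, with a log2 fold change of 1.53 for technical replicate 2 over 1 (edgeR adjusted p = 0.214). Between the 3 libraries edgeR called 0 of the 28, where 4 of 27452 (0.0146%) were called. In this comparison 1 of the 28 had an unadjusted p under 0.05 by edgeR (1193 of all 27452 regions). DESeq2 also had 1 (1563 of 27452) and called 0 of the 28. The spread in that comparison is the one within libraries, between technical replicates.

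Of 42 other genes of these lineages, 41 were in the annotation and 4 (9.76%) were in the top 10% of gene-end values, beside 7.37% of all genes. Among them were Nfe2l2, a relative of Nfe2, at 138 ± 65.1 CPM per kb, Mafk, which encodes a small MAF partner of NFE2, at 114 ± 24.2, and Fech, which encodes the last enzyme of haem synthesis, at 112 ± 40.1 (SD, n = 3 each). The median gene-end value of the list was 61.5, against 72.1 for the 8 of the 9 genes that had one and 58.8 over all genes. A region within 20 kb was present for 39 of the 41 list genes, all but Gata1 and Alas2 on chromosome X, beside 19977 of all 21887 genes.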

How the data were processed

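Each of the 6 anti-IKZF2 samples came as a deposited table of raw read counts for the same regions, with no normalization, per the file headers. Per the submitters' processing notes, reads were handled with Bowtie2 2.3.3.1 and MACS2 on mm10; peak-calling thresholds and inputs: not given in the sources used here. It is also open whether starts count from 0 or 1, and they are printed as deposited. Every region held at least 17 reads over the 6 samples. Even numbers made up 84.65 to 87.35% of the counts of at least 10 in technical replicate 1 of the libraries, and 58.02 to 61.23% in technical replicate 2. The technical replicates thus differed in this. Counting both mates of a pair would give an excess of even numbers, which was not tested, and Poisson intervals are then narrower than they should be. Depth is the total in regions.

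Genes were RefSeq protein-coding genes on GRCm38.p6, which shares coordinates with mm10. Strand and promoter windows (250 bases before to 50 after a start) came from a RefSeq table that held 7 of the 9 genes. It lists no exons, so a region is only called inside or outside a gene. Technical replicates were summed, and CPM per kb, SDs and medians were taken over 3 libraries in Python 3.11.15. Counts were tested with edgeR 4.0.16 (filterByExpr, TMM, glmQLFit and glmQLFTest, in R 4.3.3), with DESeq2 1.42.0 as an alternative. The edgeR test was also tried on simulated counts. These were all even, unlike the counts of technical replicate 2, and nothing is drawn from them here. Adjusted p-values use all regions tested. Per the labels, technical replicates 1 and 2 of a library share 1 CUT&RUN, hence the block. Named were all 9 genes with their highest and end regions, the regions in every library's top 10%, the neighbours with the nearest ends, and list genes in the top 10%, of which not all are reported here. The members, lists and classes were chosen with earlier results of these data known.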

Additional observations from a re-analysis of the deposited data

How the results depend on the processing

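The own-end minus distal difference (-3.43 CPM per kb) turned positive without library 2 (7.60; range without single libraries -14.1 to 7.60), with technical replicate 2 alone (4.73), on regions of 150 bp or wider (5.17), with 50 kb flanks (3.43), with distal regions from 2 kb (1.63), at gene starts only (0.83) and without division by width (2.38 CPM). The 20 of 77 regions in the top 10% became 10 of 77 with technical replicate 1 alone, 10 of the 20 regions of 150 bp or wider, 13 of the 45 regions with 5 kb flanks and 13 of 77 without library 2 (range without single libraries 13 to 20). Of these the regions nearer to another gene (8) became 4, 4 and 1 under the first 3 of these settings and 16 with 50 kb flanks, which hold 140 regions. The 6 regions in every library's top 10% became 2, 3 and 2 under the same 3 settings and 3 with technical replicate 2 alone, and those nearer to another gene (5) became 1, 3, 1 and 2, and 3 without division by width. Of the 9 highest regions, 4 moved by more than 1 SD with technical replicate 1 alone, and 0 with technical replicate 2 alone or with TMM. Leaving out 1 of 3 libraries cannot move their mean by 1 SD, so that count says nothing about single libraries. The highest region of Itga2b, for example, fell from 156 to 93.3 CPM per kb without library 2. edgeR and DESeq2 called 0 regions of the loci in every setting run, including 0 with no library as a block (lowest adjusted p 0.312). The alternatives for the regions in every library's top 10%, the neighbour ends and the highest regions were chosen after seeing the data. No paired analysis was possible between the antibody groups because no counts of control antibody samples were used. Depth limits single regions: the median region held 32 reads over 6 samples.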
